A study of Rattus norvegicus with 9 samples.

Results

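Gene expression of alveolar macrophages collected 28 d after a single instillation of nitrogen mustard (NM) into the lung was compared with that of cells from rats given phosphate-buffered saline (PBS). The comparison used 6 of the 9 libraries of the series, 3 labelled NM day 28 and 3 labelled PBS, and the remaining 3, labelled NM day 1, are set beside them. All rats were male Wistar rats, dosed into the trachea under isoflurane anaesthesia, and the NM animals received 0.125 mg/kg of mechlorethamine hydrochloride. Cells were recovered by lung massage, with no sorting step described. The PBS libraries carry 0 days of exposure in the labels, so the day on which the control rats were sampled is not known, and neither is the age of the animals. The series text describes the 3 libraries of each group as biological replicates. Values are FPKM, fragment numbers normalised for the length of the transcript and the size of the library, and triplets of values are given in the order of replicates 0, 1 and 2.

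Nitrogen mustard is an alkylating compound that joins the strands of DNA and damages the epithelium of airways and alveoli. In rodents the acute injury and inflammation are followed over weeks by scarring of the lung. Alveolar macrophages live in the airspaces, take up surfactant lipid and debris, and after injury are joined by macrophages that arise from blood monocytes, which bring their own set of inflammatory, lipid-handling and matrix-remodelling genes.

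The 6 libraries carried the transcripts of alveolar macrophages. Pparg, the nuclear receptor that drives alveolar macrophage identity, stood at 176, 175 and 180.3 FPKM in the PBS libraries and at 178, 193 and 178 in the NM day 28 libraries, and the groups overlapped. Ferritin light chain (Ftl1) was the highest-valued gene in every library. The resident alveolar macrophage list of 19 tested genes summed to 4266 to 7445 FPKM in PBS and to 3863 to 4544 at day 28. Marco, a scavenger receptor used as a marker of these cells, and Fabp1, a fatty acid binding protein, were listed at 0 in all 6 libraries, and nothing can be read from that. The file holds no counts, so absolute depth is unknown. The steps between the lowest values put relative depth, with NM day 28 replicate 1 as 1, at 1.37 to 2.48 in PBS and 1 to 1.08 at day 28, and 12145 to 12241 transcripts were above 0 in PBS against 11149 to 11339 at day 28. Spearman correlations were 0.949 to 0.982 within groups and 0.931 to 0.949 between them. In a principal component analysis the first component, with 45.8% of the variance, separated the groups. The second, with 25.4%, set NM day 28 replicate 1 apart at a score of 34.9, against -18.3 and -14.0 for the other day 28 libraries. NM day 28 replicate 1 was the lowest of its group in 52.4% of the genes called higher and 46.5% of those called lower, and in 38.9% of the genes not called.

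Of 9423 genes tested with limma, 317 were higher and 404 lower at day 28 at an adjusted p under 0.05. Leaving out PBS replicate 1 lowered these counts to 164 and 124, so that rises then outnumbered falls. Leaving out NM day 28 replicate 0 or 2 or PBS replicate 0 gave 173 to 234 higher and 225 to 286 lower. The reported calls made up 7.65% of the genes tested, 3.36% higher and 4.29% lower, and each list below is read against those shares. The 2 groups of 3 did not overlap in 718 of the 721 called genes, against 27.5% of all genes tested. With 3 libraries against 3, an exact permutation test of a single gene cannot go below p = 0.1. The differences exceeded 2-fold in 190 higher and 180 lower genes and 4-fold in 45 higher and 28 lower genes. Genes called higher had low levels in PBS, with a median of 9.69 FPKM, whereas those called lower had a median of 41.1 FPKM, against 18.2 FPKM over all genes tested. The median log2 fold change over all genes was -0.04. In whole-cell RNA of this kind, fewer cells of a type and less RNA per cell cannot be told apart, nor can more cells and more RNA. The plot of fold change against level shows both sets.

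**Figure D1:**
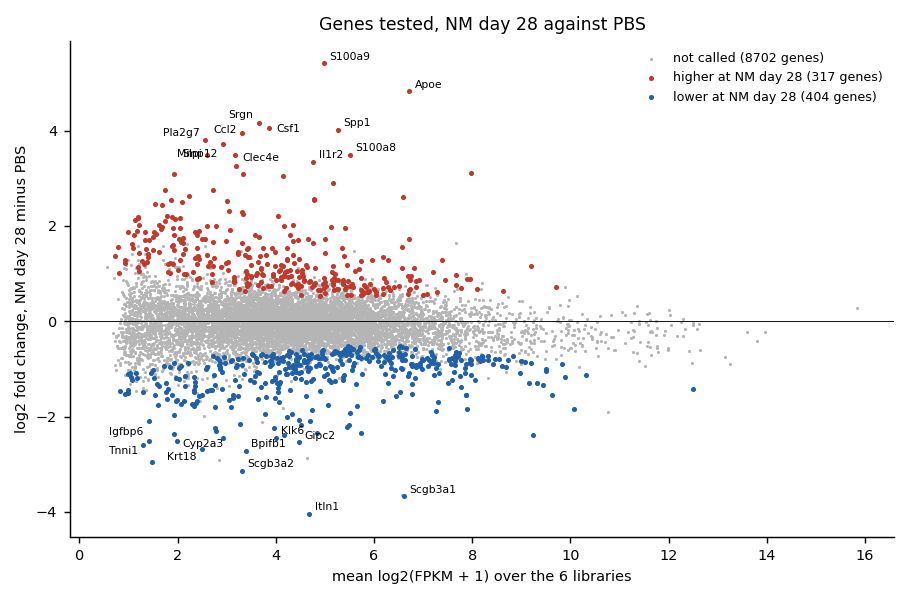
Log2 fold change of NM day 28 over PBS on the log2(FPKM + 1) scale (vertical axis) against the mean level of the 6 libraries (horizontal axis), 1 point per gene tested. The 317 genes called higher (red) lie mostly at low to middle levels and the 404 called lower (blue) reach further to the right, and the 8702 genes not called are grey.

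The largest rises were in secreted and inflammatory genes that were low in PBS cells. S100a9, a calcium-binding alarmin abundant in neutrophils and monocytes, stood at 1.88, 5.17 and 5.41 FPKM in the PBS libraries and at 319.7, 78.3 and 346 at day 28, a log2 fold change of 5.41 ± 0.52 (SE, n = 3 per group, limma adjusted p = 0.000278). Its partner S100a8 went from 4.33, 16.1 and 26.5 to 202, 64.5 and 266 FPKM (3.49 ± 0.55, adjusted p = 0.00293). In both, every day 28 library lay above every PBS library, and replicate 1 was the lowest of the 3 at day 28. The largest rises and falls were chosen among genes whose groups did not overlap, so their separation follows from that choice.

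Apoe, the apolipoprotein that carries cholesterol out of macrophages, had the second largest rise. It stood at 28.7, 12.1 and 19.1 FPKM in PBS and at 676, 470.4 and 553 at day 28 (4.82 ± 0.37, adjusted p = 0.000129). The day 28 libraries were close to each other and all far above the highest PBS library. Spp1, which encodes osteopontin, a matrix-binding cytokine that marks lipid-laden macrophages in scarring lungs, stood at 34.6, 5.92 and 2.58 FPKM in PBS and at 218, 64.2 and 259 at day 28 (4.01 ± 0.69, adjusted p = 0.0045). The groups did not overlap, although PBS replicate 0 was well above the other controls.

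Csf1, the growth factor on which macrophages depend, rose from 2.38, 2.44 and 2.89 FPKM in PBS to 77.5, 29.4 and 84.5 at day 28 (4.05 ± 0.41, adjusted p = 0.000291). Ccl2, the chemokine that draws monocytes through CCR2, rose from 0.598, 1.38 and 3.24 to 63.1, 16.7 and 51.9 FPKM (3.95 ± 0.49, adjusted p = 0.000641). Mmp12, macrophage elastase, rose from 1.82, 1.05 and 0.552 to 34.1, 18.2 and 29.3 FPKM (3.72 ± 0.37, adjusted p = 0.000278). For these genes the PBS libraries were uniformly low, and day 28 replicate 1 was again the lowest day 28 library without reaching the PBS range.

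The other genes among the 12 largest rises were Srgn (serglycin, the core proteoglycan of storage granules; 4.15 ± 0.48), Pla2g7 (the phospholipase that degrades platelet-activating factor and oxidised phospholipids; 3.81 ± 0.42), Slpi (secretory leukocyte protease inhibitor; 3.49 ± 0.39), Clec4e (Mincle, a receptor for glycolipids and dead cells; 3.48 ± 0.55) and Il1r2 (the interleukin-1 decoy receptor; 3.35 ± 0.37). Their adjusted p-values were 0.000413, 0.000321, 0.000321, 0.00295 and 0.000321. None of the 12 lost its call with any library left out or under any other setting run. The fold changes depend on the pseudocount where PBS levels are low: with 5 in place of 1, those of Pla2g7, Mmp12 and Slpi were 2.25, 2.36 and 2.10. Another pseudocount moved the fold change of 25 named genes, most with a group near 0 FPKM, by more than 1.5 times and reversed none of them.

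**Figure D2:**
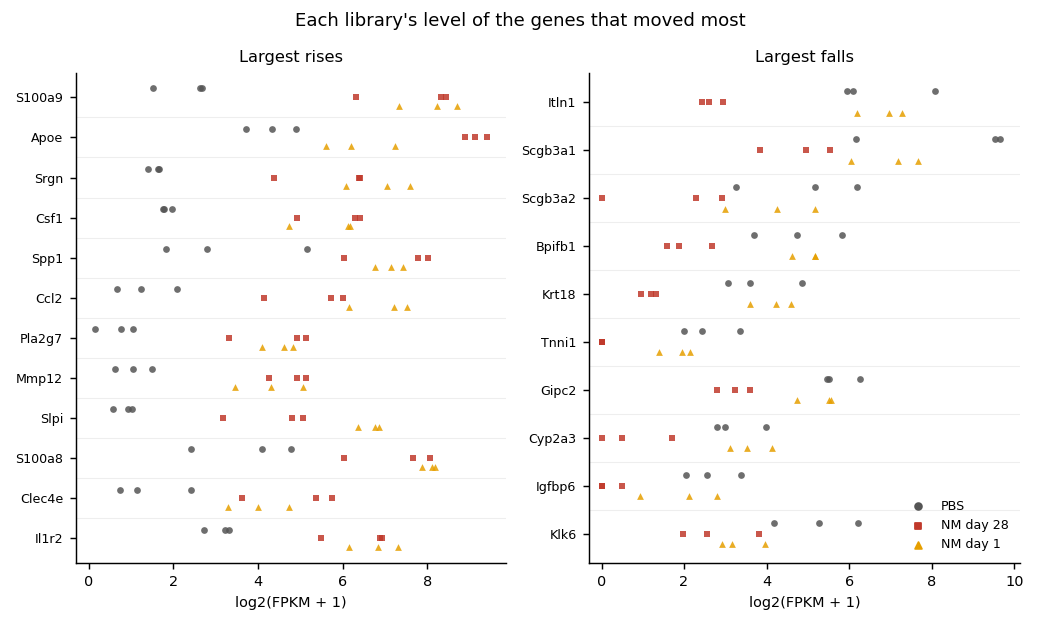
Level of the 12 genes with the largest rises and the 10 named genes with the largest falls, as log2(FPKM + 1) per library, with PBS as circles, NM day 28 as red squares and NM day 1 as yellow triangles. The genes were chosen among those whose groups did not overlap, so the day 28 squares stand clear of the PBS circles by that choice. The day 1 triangles lie with the PBS circles for Itln1, Krt18 and Bpifb1.

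Several inflammatory cytokines and chemokines were higher than in PBS 28 d after NM. Of 22 tested pro-inflammatory genes, 5 rose (Ccl2, Cxcl2, Il1b, Ccl3 and Nos2) and 1 fell (Nfkb2), with a list median of 0.41, and of 16 chemokines and chemokine receptors 6 rose and 0 fell, with a median of 0.68 against -0.04 for all genes. Il1b, the inflammasome-processed cytokine, stood at 15.3, 12.2 and 9.57 FPKM in PBS and at 169, 40.4 and 136 at day 28 (2.91 ± 0.45, adjusted p = 0.00262). Cxcl2, a neutrophil attractant, stood at 5.37, 5.8 and 4.27 in PBS and at 76, 26.6 and 59.996 FPKM at day 28 (3.05 ± 0.47, adjusted p = 0.00256). Every day 28 library exceeded every PBS library for both, with replicate 1 lowest. Nos2, the inducible nitric oxide synthase, rose from 0.615, 0.617 and 1.8 to 8.35, 4.45 and 12.1 FPKM (adjusted p = 0.0113), levels that remained low beside those of Il1b. Nfkb2, which encodes the p100 precursor of NF-kB p52, fell by 0.82 ± 0.18 from 52.4, 60.5 and 44.2 to 34.5, 23.1 and 30.4 FPKM (adjusted p = 0.017). The call of Nfkb2 was lost when PBS replicate 1 was left out (adjusted p = 0.0984).

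Among the chemokine genes, Cxcr2, the receptor for neutrophil attractants, rose from 0.855, 0.444 and 0.582 to 5.14, 4.78 and 8.33 FPKM (2.10 ± 0.27, adjusted p = 0.000864). Ccl7, Ccl3 and Cxcr4 also passed the test. Of 10 tested members of the neutrophil list, 5 were called higher (S100a9, S100a8, Il1r2, Cxcr2 and Csf3r) and 0 lower, with a median of 1.02. Fold changes were positive in 6 of the 10 and negative in 4, and none of these 4 was called. Cxcr2 is also a member of the chemokine list, and Il1r2 of the alternative activation list. The whole neutrophil list summed to 380 to 766 FPKM in PBS and 703 to 1357 at day 28, so the sums overlapped. Ngp, a granule gene of the list, was tested and not called. The granule genes Ltf, Elane, Retnlg and Mmp8 stayed below the level needed for testing, and Ltf was at 0 in all 6 libraries. Retnlg stood at 0, 0 and 0 FPKM in PBS and 6.30, 0 and 4.63 at day 28. Mmp8 stood at 0, 0.138 and 0 in PBS and 0.720, 0 and 0.687 at day 28, and Elane at 0.498, 0 and 0 and at 0, 0.410 and 0. The part of neutrophils in these rises was not tested beyond those values.

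**Figure D3:**
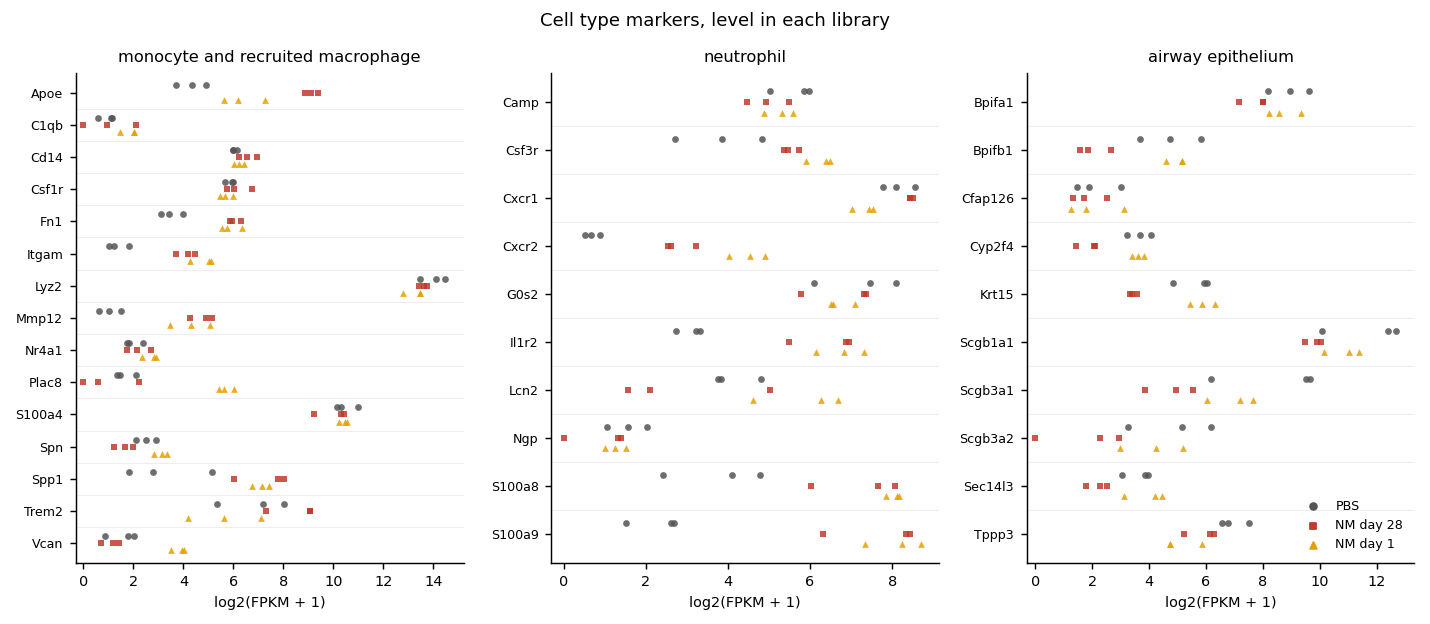
Level of the tested markers in the monocyte, neutrophil and airway epithelium lists, apart from those not reported here, as log2(FPKM + 1) per library, for PBS, NM day 28 and NM day 1. The neutrophil genes S100a8 and S100a9 and the monocyte genes Spp1, Apoe and Mmp12 are high at day 28. All 10 tested airway genes have negative fold changes against PBS, and 6 of them were called lower.

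C-type lectins and other pattern receptors were divided. Of 16 tested, 5 rose (Clec4e, Clec5a, Clec4d, Cd300a and Clec12a) and 2 fell (Cd300lf and Mrc1), with a median of 0.63. Clec5a, a spleen tyrosine kinase-coupled activating receptor, went from 12.1, 12.2 and 11.7 FPKM in PBS to 26.8, 23 and 29.2 at day 28 (1.06 ± 0.22, adjusted p = 0.0119). Cd300lf, an inhibitory receptor for lipids of dying cells, fell by 0.73 ± 0.15 from 373, 445 and 415 to 252, 266 and 223 FPKM (adjusted p = 0.0119). Neither pair of groups overlapped. Clec4d, the partner of Mincle, had values of 2.01, 1.23 and 4.03 in PBS and 11.7, 6.02 and 12.7 FPKM at day 28 (adjusted p = 0.0268). The call of Cd300lf was lost without NM day 28 replicate 2 or PBS replicate 1 and under quantile normalisation (adjusted p at most 0.0781). That of Clec4d was lost without NM day 28 replicate 0 or 2 or PBS replicate 0 or 1 (adjusted p at most 0.118). Clec4d was also not called with no filter on low values (adjusted p = 0.0744). The count of risen lectins dropped from 5 to 2 without NM day 28 replicate 0 or 2 or PBS replicate 0 or 1.

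Among 17 Toll-like receptor genes and their adaptors 2 rose, both receptors. Tlr1, which pairs with TLR2 for lipopeptides, stood at 0.774, 0.716 and 0.375 FPKM in PBS and 6.85, 3.09 and 6.4 at day 28 (1.94 ± 0.30, adjusted p = 0.0025). Tlr3, the endosomal sensor of double-stranded RNA, stood at 1.92, 1.66 and 0.98 in PBS and 5.49, 4.24 and 4.43 FPKM at day 28 (1.19 ± 0.24, adjusted p = 0.0119). Both were low in PBS and did not overlap with it at day 28. Tlr1 was under 1 FPKM in every PBS library, so the filter on low values fixed its separation in advance.

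Markers of monocytes and recruited macrophages were higher where called. Of 17 tested, 7 were called higher (Apoe, Spp1, Mmp12, Itgam and Fn1 among them) and 0 lower, with a median of 0.53. Fold changes were positive in 12 and negative in 5. Apoe, Spp1, Mmp12, Itgam and Fn1 are members of other lists as well, so their rises are counted more than once. Itgam, the CD11b integrin that most resident alveolar macrophages lack, stood at 1.05, 1.31 and 2.53 FPKM in PBS and at 17, 11.9 and 20.9 at day 28 (2.75 ± 0.29, adjusted p = 0.000321). It was clear of PBS in every day 28 library. The list as a whole summed to 12901 to 24331 FPKM in PBS (median 19936) and 13938 to 15672 at day 28 (median 15514), overlapping ranges. Ccr2, the receptor of classical monocytes, did not reach the level needed for testing. The part of recruited cells in the other gene groups was not tested beyond those values.

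The resident alveolar macrophage list went both ways, with 3 of 19 genes higher, 3 lower and a median of -0.14. The higher genes were Chi3l1, Car4 and Rnase3. Car4, a membrane carbonic anhydrase, stood at 0, 0.155 and 0.609 FPKM in PBS and 11, 2.5 and 6.42 at day 28 (2.46 ± 0.47, adjusted p = 0.00854), and Rnase3, a secreted ribonuclease, at 72.6, 74.6 and 72.5 in PBS and 165, 142 and 123 at day 28 (0.95 ± 0.19, adjusted p = 0.0112). The lower ones, Cidec, Abcg1 and Mrc1, handle lipid droplets, cholesterol efflux and glycoprotein uptake, and 1 of these 3 calls was left without NM day 28 replicate 2 or PBS replicate 1 and under quantile normalisation. Spi1, which encodes PU.1, the master regulator of the myeloid lineage, fell by 0.79 ± 0.20 from 440.3, 364 and 296 to 227, 169 and 237 FPKM (adjusted p = 0.032). The call of Spi1 was lost when any of NM day 28 replicates 0, 1 and 2 and PBS replicates 0 and 1 was left out (adjusted p at most 0.113). Spi1 was not called with no filter on low values or a fit of the 6 libraries alone (adjusted p up to 0.062).

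Of 19 matrix and matrix-remodelling genes 7 rose and 0 fell, with a median of 0.24. They were Mmp12, Fn1, Ctsk, Chi3l1, Tgfbi, Plau and Timp1. The count of 7 became 5 or 6 with any 1 library left out. It was 6 with a fit of the 6 libraries alone or transcripts tested singly. Fn1, fibronectin, a scaffold of provisional matrix, stood at 7.59, 9.63 and 14.9 FPKM in PBS and at 57.4, 79 and 59.8 at day 28 (2.54 ± 0.25, adjusted p = 0.000278). Ctsk, cathepsin K, a lysosomal collagenase, stood at 10.7, 11.6 and 6.62 in PBS and 43.4, 26.7 and 39.3 FPKM at day 28 (1.82 ± 0.28, adjusted p = 0.00262). Chi3l1, a chitinase-like secreted protein, stood at 1.32, 2.63 and 3.45 in PBS and 27.6, 8.43 and 25.4 FPKM at day 28 (2.52 ± 0.40, adjusted p = 0.00286). The day 28 libraries exceeded PBS in each, and Fn1 was highest in replicate 1. Fibroblast collagen genes such as Col1a1 did not reach the level needed for testing, and the summed fibroblast list was 13.96 to 19.9 FPKM in PBS and 18.7 to 24.7 at day 28.

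Of 17 profibrotic growth factors and receptors 2 rose, Spp1 and Vegfa, with a median of 0.37. Vegfa, the endothelial growth factor, went from 1.15, 2.05 and 1.26 FPKM to 7.18, 4.98 and 8.08 (1.64 ± 0.34, adjusted p = 0.0128). The call of Vegfa was lost when NM day 28 replicate 2 was left out (adjusted p = 0.0513). Vegfa was not called with transcripts tested singly (adjusted p = 0.0772). Tgfb1, the central fibrogenic cytokine, was not called: it stood at 225, 206 and 156 FPKM in PBS and at 145, 98.6 and 117 at day 28 (-0.70 ± 0.20, adjusted p = 0.0508). Its day 28 values were all below its PBS values, and it passed the threshold as lower without NM day 28 replicate 0 (adjusted p = 0.0456) or PBS replicate 2 (0.0281).

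Genes of alternative activation and resolution split, with 6 of 23 higher (Chi3l1, Folr2, Il1r2, Il1rn, Retnla and Socs3) and 2 lower (Mrc1 and Alox15), and a median of 0.05. Folr2, a folate receptor of tissue macrophages, rose from 0.706, 0.163 and 0.64 to 4.24, 5.84 and 2.16 FPKM (1.71 ± 0.30, adjusted p = 0.0057). Alox15, which makes lipid mediators of resolution, fell by 2.01 ± 0.22, from 49.1, 37.6 and 26.9 FPKM to 10.03, 7.62 and 7.58 (adjusted p = 0.000321). Its highest day 28 value lay well below its lowest PBS value. Mrc1, the mannose receptor CD206, fell by 0.73 ± 0.18 from 362, 347 and 419 to 202, 283 and 201 FPKM (adjusted p = 0.0305). The call of Mrc1 was lost when any of NM day 28 replicates 0 and 2 and PBS replicates 0, 1 and 2 was left out (adjusted p at most 0.108). Mrc1 was not called with quantile normalisation or a fit of the 6 libraries alone (adjusted p up to 0.151). Arg1, arginase, was not called (0.74 ± 0.36, adjusted p = 0.228), with 126, 93.9 and 37.1 FPKM in PBS and the near-equal 131, 128 and 126 at day 28. The 6 higher calls became 3 without NM day 28 replicate 0 or 2.

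Sterol synthesis was the lipid pathway with most genes called. Of 24 tested enzymes and regulators 8 rose and 0 fell, and the list median was 0.62, against -0.04 for all genes. Hmgcs1, which commits acetyl units to the mevalonate pathway, stood at 11.1, 12.6 and 11.4 FPKM in PBS and 28.4, 28.1 and 41.6 at day 28 (1.38 ± 0.18, adjusted p = 0.00101). Idi1, isopentenyl diphosphate isomerase, stood at 10.7, 9.93 and 5.78 in PBS and 28.3, 24.4 and 23 FPKM at day 28 (1.46 ± 0.23, adjusted p = 0.00275). Insig1, the sterol-regulated brake on the pathway, stood at 24, 26.5 and 24.8 in PBS and 49.8, 53.3 and 50.2 FPKM at day 28 (1.00 ± 0.15, adjusted p = 0.00254). None of the 3 overlapped between groups, and their calls held without any library. Idi1 was lowest in PBS replicate 2 and Hmgcs1 highest in day 28 replicate 2. Fdft1, Acat2, Cyp51, Fdps and Msmo1 made up the other 5. The count was 5 without NM day 28 replicate 0 or PBS replicate 1 and 4 without NM day 28 replicate 2. The sterol regulatory element, searched as TCACNCCAC on both strands from 250 bases before to 50 after the RefSeq start site (GRCr8), was in 0 of 17 members with a promoter and 0 of the 7 higher ones among them, against 1.12% of all promoters, which says only that these letters are not in these windows.

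Cholesterol export genes did not share a direction, with 2 of 17 higher, 1 lower and a median of -0.17. The higher ones were Apoe and Pltp, the phospholipid transfer protein, which stood at 251, 162 and 130.3 FPKM in PBS and 376, 285 and 309.8 at day 28 (0.88 ± 0.24, adjusted p = 0.0443). Abcg1, the exporter that alveolar macrophages rely on to clear surfactant cholesterol, fell by 0.90 ± 0.19, from 522, 451 and 428 to 242, 265 and 241 FPKM (adjusted p = 0.0136). No day 28 value reached the lowest PBS value. The call of Abcg1 was lost without NM day 28 replicate 2 or PBS replicate 1 and under quantile normalisation (adjusted p at most 0.0547). That of Pltp was lost without NM day 28 replicate 0 or 2 or PBS replicate 1 or 2 (adjusted p at most 0.158). It was also lost without NM day 1 replicate 1 or 2. Pltp was not called with no filter on low values, a fit of the 6 libraries alone or transcripts tested singly (adjusted p up to 0.088). Abca1, the other main exporter, stood at 88.4, 83.5 and 134 in PBS and 70.8, 128 and 76.4 FPKM at day 28 (-0.17 ± 0.35, adjusted p = 0.813), and Nr1h3, which encodes LXR alpha, at 250.4, 214 and 182 in PBS and 176, 117 and 180.1 at day 28 (-0.46 ± 0.20, adjusted p = 0.177). Neither was called, and the sign of Abca1 changed without PBS replicate 2. Without NM day 28 replicate 1 the list had 3 falls in place of 1.

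Lipid uptake receptors showed 1 call in 17 genes, with a median of -0.28. Scarb1, the high-density lipoprotein receptor, stood at 19.6, 14.5 and 15.9 FPKM in PBS and 35.8, 25.6 and 32.9 at day 28 (0.87 ± 0.18, adjusted p = 0.0128). The call of Scarb1 was lost when any of NM day 28 replicate 0 and PBS replicate 1 was left out (adjusted p at most 0.0751). Cd36, the receptor for oxidised lipoprotein, stood at 262, 112 and 75.5 in PBS and 106, 133 and 97 FPKM at day 28 (-0.23 ± 0.36, adjusted p = 0.744), and the groups overlapped. Msr1, scavenger receptor A, stood at 79.98, 69.7 and 65.3 in PBS and 46, 64.4 and 57.8 FPKM at day 28 (-0.36 ± 0.16, adjusted p = 0.203). Neither of these 2 receptors was called, Msr1 passed as lower with library weights (adjusted p = 0.0157), and the sign of Cd36 changed without PBS replicate 0. The list had 2 falls in place of 0 without PBS replicate 2 and 1 without NM day 28 replicate 1.

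Genes of lipid-associated macrophages gave 3 rises in 17, Apoe, Spp1 and Cstb, a cathepsin inhibitor, and a median of -0.05. Cstb stood at 541, 349.5 and 317 FPKM in PBS and 929.5, 776 and 925 at day 28 (1.16 ± 0.24, adjusted p = 0.0142). The call of Cstb was lost when any of NM day 28 replicate 2 and PBS replicate 1 was left out (adjusted p at most 0.0698). Trem2, the lipid receptor that defines these cells, stood at 39.9, 144 and 256 in PBS and 529, 158 and 540.2 FPKM at day 28 (1.64 ± 0.75, adjusted p = 0.205). Day 28 replicates 0 and 2 exceeded every PBS library, but replicate 1 fell within the PBS range. Gpnmb, a glycoprotein of foam cells, stood at 1325, 633 and 475 in PBS and 1268, 1102 and 1275 FPKM at day 28 (0.72 ± 0.30, adjusted p = 0.169). PBS replicate 0 was above its day 28 range, and the gene passed as higher without that library (adjusted p = 0.0113) and under quantile normalisation (0.0183). Without PBS replicate 2 the list had 2 falls, and without NM day 28 replicate 1 it had 1.

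Fat storage and fat burning genes were lower where they were called. In the lipid droplet and lipolysis list 3 of 21 fell and 0 rose, with a median of -0.26. Cidea, a droplet-fusion protein, stood at 101, 95.2 and 71.6 FPKM in PBS and 23.2, 19.9 and 24.9 at day 28 (-1.92 ± 0.22, adjusted p = 0.000354), and its relative Cidec at 50.4, 52.7 and 43.4 in PBS and 18.6, 15 and 17.6 at day 28 (-1.46 ± 0.17, adjusted p = 0.000354). Both were 2-fold or more below PBS in every library. Nceh1, which hydrolyses stored cholesteryl ester, fell by 1.08 ± 0.26 (adjusted p = 0.03). The call of Nceh1 was lost when any of NM day 28 replicate 2 and PBS replicates 0 and 1 was left out (adjusted p at most 0.139). Nceh1 was also not called with no filter on low values or a fit of the 6 libraries alone (adjusted p up to 0.0683). Cidec kept its call with any library left out but not with transcripts tested singly (adjusted p = 0.192). With transcripts tested singly the fold change of Cidec was -2.69. Plin2, the general droplet coat protein, stood at 668, 336 and 277 in PBS and 358, 266 and 384 FPKM at day 28 (-0.26 ± 0.28, adjusted p = 0.622), overlapping groups in which PBS replicate 0 was highest, and its sign changed under quantile normalisation, with library weights and without PBS replicate 0.

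Fatty acid oxidation showed 3 falls and 0 rises in 25 genes, with a median of -0.23. Acads, the short-chain acyl-CoA dehydrogenase, stood at 47.2, 39.9 and 33.3 FPKM in PBS and 19, 11.5 and 19 at day 28 (-1.25 ± 0.22, adjusted p = 0.00514). Ech1, which handles unsaturated fatty acids, and Cpt2, the inner carnitine palmitoyltransferase, fell by 0.82 ± 0.19 and 0.83 ± 0.22 (adjusted p = 0.0198 and 0.0383). The call of Ech1 was lost without NM day 28 replicate 0 or PBS replicate 0 or 1 (adjusted p at most 0.079). That of Cpt2 was lost without NM day 28 replicate 0 or 2 or PBS replicate 0 or 1 (adjusted p at most 0.129). It was also lost without NM day 1 replicate 1 or 2. Neither was called with a fit of the 6 libraries alone (adjusted p up to 0.0764). Cpt2 was also not called with no filter on low values or transcripts tested singly. The count of 3 became 1 without PBS replicate 0 or 1. Cpt1a, the gatekeeper of mitochondrial import, had all day 28 values, 11.2, 11.9 and 11 FPKM, below its PBS values of 15.4, 16.6 and 16.2, but was not called (-0.47 ± 0.16, adjusted p = 0.0923).

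**Figure D4:**
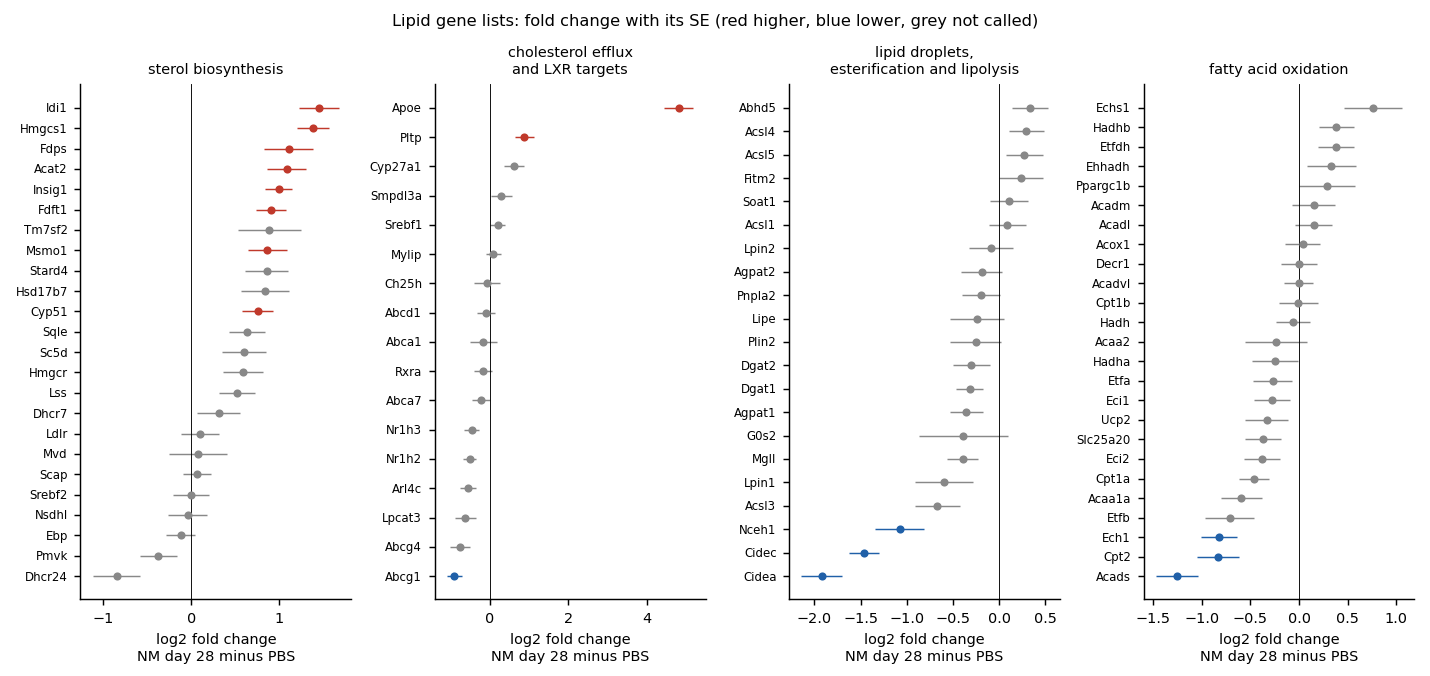
Log2 fold change of NM day 28 over PBS with its standard error for each tested gene of the sterol synthesis, cholesterol efflux, lipid droplet and fatty acid oxidation lists, with called genes in colour. The 8 called sterol genes lie to the right of 0, and the 3 called genes of each of the droplet and oxidation lists lie to the left.

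Synthesis and turnover of fatty acids and phospholipids gave 3 rises (Pla2g7, Chka and Elovl5) and 1 fall (Pla2g15) in 21 genes, with a median of -0.06. Chka, choline kinase alpha, stood at 13.8, 15 and 16.5 FPKM in PBS and 35.3, 28.5 and 35.1 at day 28 (1.07 ± 0.18, adjusted p = 0.0045). Pla2g15, the lysosomal phospholipase that degrades surfactant phospholipid, fell by 0.82 ± 0.21 from 718, 558 and 453 to 349.7, 325 and 288 FPKM (adjusted p = 0.036). Elovl5, a fatty acid elongase, rose by 0.59 ± 0.17 (adjusted p = 0.0485). The call of Elovl5 was lost with any library left out except NM day 28 replicate 1, in 8 of 9 fits (limma adjusted p at most 0.152). That of Pla2g15 was lost in 6 of the 9 (adjusted p at most 0.117). They were the fits without any NM day 28 replicate, PBS replicate 0 or 1, or NM day 1 replicate 1. Pla2g15 and Elovl5 were not called with 1 or more of no filter on low values, quantile normalisation, a fit of the 6 libraries alone and transcripts tested singly (adjusted p up to 0.086). The list had 3 falls without PBS replicate 2 and 2 without NM day 28 replicate 1.

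Of 11 eicosanoid enzymes, Ptgs1 (cyclooxygenase 1) rose by 0.83 ± 0.21 (adjusted p = 0.034) and Alox15 and Alox5 fell. Alox5, which starts leukotriene synthesis, stood at 221, 267 and 242 FPKM in PBS and 119, 183 and 121 at day 28 (-0.81 ± 0.18, adjusted p = 0.0207). All day 28 values were below PBS, with replicate 1 nearest to it. The call of Ptgs1 was lost without NM day 28 replicate 0 or 1, PBS replicate 0 or 1 or NM day 1 replicate 2 (limma adjusted p at most 0.111). That of Alox5 was lost without NM day 28 replicate 0 or 2 or PBS replicate 1 (adjusted p at most 0.104). Ptgs1 and Alox5 were not called with 1 or more of no filter on low values, a fit of the 6 libraries alone and quantile normalisation (adjusted p up to 0.0986).

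Several genes of the list for the p53 and DNA damage response were higher 28 d after the alkylating agent. Of 27 tested, 5 rose (Cdkn1a, Mdm2, Ccng1, Pmaip1 and Chek1) and 0 fell, with a median of 0.21. Cdkn1a, which encodes the p21 inhibitor of cyclin-dependent kinases, stood at 13.4, 11.2 and 6.98 FPKM in PBS and at 61.7, 78.9 and 58.1 at day 28 (2.57 ± 0.27, adjusted p = 0.000321). Mdm2, the ubiquitin ligase that p53 induces and is degraded by, stood at 25.8, 23.5 and 19.8 in PBS and 51.7, 54.5 and 50.8 FPKM at day 28 (1.16 ± 0.19, adjusted p = 0.00305). Ccng1, cyclin G1, stood at 94.7, 92.1 and 70.8 in PBS and 160.4, 143 and 159 FPKM at day 28 (0.85 ± 0.18, adjusted p = 0.0151). The groups were apart in all 3, and the Mdm2 values at day 28 were close to each other. The call of Ccng1 was lost when any of NM day 28 replicates 0 and 2 was left out (adjusted p at most 0.055). The count was 3 without NM day 28 replicate 0 or 2 or PBS replicate 0 or 1. No gene of 18 in cross-link repair was called by limma, and 2 of them had an unadjusted p under 0.05.

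Proliferation genes were lower where called, with 1 exception. Of 44 tested cell cycle genes 10 were lower (Mki67, Cdca8, Cenpf, Cdk1, Tpx2, Cenpa, Ube2c, Dut, Ccnd1 and Ccna2) and 1 higher (Ccne2), with a median of -0.47. Mki67, the Ki-67 antigen of cycling cells, stood at 13.8, 18.7 and 18.3 FPKM in PBS and 7.25, 6.47 and 7.33 at day 28 (-1.15 ± 0.18, adjusted p = 0.00282). Cdca8, borealin of the chromosomal passenger complex, stood at 9.26, 14.2 and 6.28 in PBS and 2.94, 2.53 and 3.03 FPKM at day 28 (-1.45 ± 0.26, adjusted p = 0.00651). Cenpf, a kinetochore protein, stood at 4.71, 6.22 and 7.46 in PBS and 1.34, 2.7 and 1.44 FPKM at day 28 (-1.35 ± 0.26, adjusted p = 0.00865). In these genes every day 28 library was below every PBS library. Ccne2, cyclin E2 of the transition into S phase, went the other way, from 5.63, 7.75 and 8.08 to 18.8, 19.97 and 15.7 FPKM (1.24 ± 0.19, adjusted p = 0.00262). The 10 falls became 5 without NM day 28 replicate 0 or PBS replicate 0 and 4 without PBS replicate 1.

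Many mitotic promoters hold the CHR element, written here as TTTGAA, through which the DREAM complex acts. It was searched on both strands from 250 bases before to 50 after the RefSeq start site. It was in 18.3% of 33469 rat promoters and in 14 of the 32 tested cell cycle genes with a promoter in the table (43.8%). Of the 6 genes called lower that had a promoter, 5 held it. The 150 bases before the start of Cdca8 and Cdk1 are shown because both genes fell and both carry the element close to the start. They are from RefSeq on GRCr8, chr5:142483200-142483349 on the minus strand for Cdca8 and chr20:19265143-19265292 on the plus strand for Cdk1, written 5′ to 3′ along the gene with each TTTGAA in capitals.
Cdca8: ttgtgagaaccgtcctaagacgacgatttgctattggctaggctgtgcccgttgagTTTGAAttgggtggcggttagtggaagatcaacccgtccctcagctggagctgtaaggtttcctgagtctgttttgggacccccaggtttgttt
Cdk1: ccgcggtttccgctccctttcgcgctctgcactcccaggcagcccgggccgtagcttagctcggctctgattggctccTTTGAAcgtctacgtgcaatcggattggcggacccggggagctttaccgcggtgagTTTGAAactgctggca
The match in Cdca8 begins 94 bases before the start and those in Cdk1 72 and 16 bases before it. A match is a stretch of letters and says nothing of what binds there.

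Of 32 antioxidant genes of the NRF2 programme 8 rose and 1 fell, with a median of 0.10. The higher ones included Gclc, Gstp1, Srxn1, Pgd, Gsta1, Txnrd1 and Nfe2l2. Gclc, which limits glutathione synthesis, stood at 9.33, 8.41 and 7.34 FPKM in PBS and 14.2, 21 and 17.7 at day 28 (0.98 ± 0.19, adjusted p = 0.00888). Gstp1, a glutathione transferase, stood at 13.2, 37.3 and 23.8 in PBS and 61.3, 65.9 and 79.6 FPKM at day 28 (1.55 ± 0.31, adjusted p = 0.0103). Neither overlapped between groups, and both kept their calls with any library left out. Mt1, a metallothionein, fell by 0.88 ± 0.20 from 924, 907 and 599 to 434, 463 and 402 FPKM (adjusted p = 0.0229), and the fold change was -0.55 under quantile normalisation. The call of Mt1 was lost when any of NM day 28 replicates 0 and 2 and PBS replicates 0 and 1 was left out (adjusted p at most 0.117). With library weights the log2 fold change of Gstp1 was 0.94. The 8 rises became 4 without NM day 28 replicate 0 or 2 or PBS replicate 1 and 5 without PBS replicate 2. The antioxidant response element, searched as TGACNNNGC on both strands in the same windows, was in 11 of 27 members with a promoter (40.7%), against 12.1% of all promoters. Of the 7 higher genes with a promoter, 3 held it (Gstp1, Gsta1 and Nfe2l2).

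Interferon-stimulated genes moved in both directions, 5 of 41 higher (Ifitm1, Isg20, Ifit3, Oasl and Usp18) and 4 lower (Bst2, Tap2, Psmb8 and Rtp4), with a median of -0.10. Ifitm1, a membrane restriction factor, stood at 30.9, 57.9 and 30.3 FPKM in PBS and 297, 163 and 278 at day 28 (2.62 ± 0.28, adjusted p = 0.000321). Isg20, an RNA exonuclease, stood at 27.9, 28 and 20.4 in PBS and 63.6, 65.8 and 71.2 FPKM at day 28 (1.37 ± 0.18, adjusted p = 0.000805), and Ifit3, which takes part in sensing viral RNA, at 9.9, 5.81 and 8.69 in PBS and 47.8, 15.9 and 55.1 at day 28 (2.00 ± 0.37, adjusted p = 0.00664). Bst2, tetherin, stood at 1697, 1466 and 1056 FPKM in PBS and at 357, 167 and 310.5 at day 28 (-2.38 ± 0.28, adjusted p = 0.000465). The groups were separate in all 4, and Bst2 was lowest in day 28 replicate 1.

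Tap2, a peptide transporter of antigen presentation, fell by 1.20 ± 0.26 from 34.9, 31.8 and 26.6 to 17.3, 8.2 and 15 FPKM (adjusted p = 0.017), and Psmb8, an immunoproteasome subunit, by 1.00 ± 0.26 from 209, 174 and 150.2 to 97.4, 57.6 and 120.0 (adjusted p = 0.0368). The call of Tap2 was lost without PBS replicate 0 or 1 (adjusted p at most 0.0675). That of Psmb8 was lost without NM day 28 replicate 0 or 1 or PBS replicate 0 or 1 (adjusted p at most 0.114). It was also lost without NM day 1 replicate 1. Psmb8 was not called with no filter on low values, a fit of the 6 libraries alone or transcripts tested singly (adjusted p up to 0.0793). The higher count became 3 without NM day 28 replicate 2 or PBS replicate 1, and the lower count became 2 without NM day 1 replicate 1 or NM day 28 replicate 0 and 1 without PBS replicate 0 or 1.

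The interferon-stimulated response element was searched as GAAA, any 2 bases and GAAA again, on both strands in the same windows. It was in 3.92% of 33469 promoters and in 21 of 32 members with a promoter (65.6%), among them 2 of 3 higher genes (Isg20 and Ifit3) and 3 of 3 lower genes (Bst2, Tap2 and Psmb8). The 150 bases before the start of Isg20, Ifit3 and Bst2 are shown because genes that moved in opposite directions carry the same letters. They are chr1:142239909-142240058 on the plus strand, chr1:241527176-241527325 on the plus strand and chr16:18254968-18255117 on the minus strand of GRCr8, from RefSeq, 5′ to 3′ along the gene, with the match in capitals.
Isg20: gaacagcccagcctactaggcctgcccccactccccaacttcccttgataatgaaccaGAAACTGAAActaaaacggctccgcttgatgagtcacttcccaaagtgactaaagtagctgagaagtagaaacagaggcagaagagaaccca
Ifit3: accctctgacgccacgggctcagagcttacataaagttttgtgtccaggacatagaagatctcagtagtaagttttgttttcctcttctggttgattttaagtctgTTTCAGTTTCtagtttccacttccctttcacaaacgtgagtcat
Bst2: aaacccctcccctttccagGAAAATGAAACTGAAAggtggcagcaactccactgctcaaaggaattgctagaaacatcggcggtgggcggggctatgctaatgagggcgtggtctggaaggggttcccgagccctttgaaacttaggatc
The match begins 92 bases before the start in Isg20. In Ifit3 it begins 44 bases before the start and lies on the opposite strand, so the capitals show its reverse complement. Bst2 has overlapping matches that begin 131 and 125 bases before the start.

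The 1 gene called in the MHC class II list and most called genes of complement were lower. Among 14 genes of MHC class II, 1 fell and 0 rose, with a median of -0.47, and the called gene was RT1-DMa, a chain of the peptide-loading chaperone, at 200.2, 208 and 176 FPKM in PBS and 115, 105 and 111 at day 28 (-0.81 ± 0.16, adjusted p = 0.00996). The call of RT1-DMa was lost when PBS replicate 1 was left out (adjusted p = 0.0589). Without PBS replicate 2 the list had 3 falls. Of 14 complement genes 3 fell (Cfb, Vsig4 and C2) and 1, Itgam, rose. Cfb, factor B of the alternative pathway, stood at 334, 594 and 452 in PBS and 131, 102 and 144 FPKM at day 28 (-1.84 ± 0.23, adjusted p = 0.000621). Vsig4, a complement receptor of tissue macrophages, stood at 25.4, 31.5 and 22.1 in PBS and 5.71, 10.8 and 3.4 FPKM at day 28 (-1.94 ± 0.34, adjusted p = 0.00524). C2, of the classical pathway, stood at 890.1, 804 and 545 in PBS and 361, 359 and 317 FPKM at day 28 (-1.08 ± 0.21, adjusted p = 0.00912). No day 28 value reached the PBS range in any of the 3, and these calls held without any library.

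Fc receptors moved in both directions. Of 19 genes of Fc receptors and phagocytosis 1 rose and 3 fell, with a median of -0.27. Fcgr2b, the inhibitory IgG receptor, stood at 22.6, 14.3 and 14.1 FPKM in PBS and 69.1, 64 and 72.4 at day 28 (1.98 ± 0.21, adjusted p = 0.000321). Fcgr3a, an activating IgG receptor, stood at 402, 274 and 211 in PBS and 126, 158 and 76.7 FPKM at day 28 (-1.30 ± 0.28, adjusted p = 0.0154). Fcgrt, the neonatal Fc receptor, stood at 1039, 979 and 693 in PBS and 389, 382 and 315 FPKM at day 28 (-1.30 ± 0.21, adjusted p = 0.00316). In each the groups were separate. Itgb5, an integrin subunit used in the uptake of dying cells, fell by 2.23 ± 0.40 from 41.4, 29.2 and 28.8 to 6.38, 13.7 and 2.39 FPKM (adjusted p = 0.00633). The call of Fcgr3a was lost when any of NM day 28 replicate 2 and PBS replicates 0 and 1 was left out (adjusted p at most 0.0588).

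Chaperones of the endoplasmic reticulum were lower where called. In the list of 25 genes for endoplasmic reticulum stress and the integrated stress response 4 fell and 1 rose, with a median of -0.20. Hsp90b1, GRP94, stood at 274, 233 and 196 FPKM in PBS and 113, 129 and 89.6 at day 28 (-1.08 ± 0.19, adjusted p = 0.0055), with every day 28 library below PBS. Hspa5, BiP, fell by 0.82 ± 0.20 and Pdia3, a disulphide isomerase, by 0.79 ± 0.21 (adjusted p = 0.0289 and 0.0387). Asns, asparagine synthetase, a target of ATF4, rose from 33.8, 37.1 and 22 to 56.6, 49.6 and 54.1 FPKM (0.80 ± 0.20, adjusted p = 0.0296). The call of Pdia3 was lost in 7 of 9 fits with a library left out (limma adjusted p at most 0.131). It held only without PBS replicate 2 or NM day 1 replicate 0. That of Hspa5 was lost without NM day 28 replicate 0 or 2 or PBS replicate 0 or 1 (adjusted p at most 0.0904). That of Asns was lost without NM day 28 replicate 0 or 2 or PBS replicate 2 (adjusted p at most 0.0845). Hspa5, Pdia3 and Asns were not called with 1 or more of no filter on low values, a fit of the 6 libraries alone and transcripts tested singly (adjusted p up to 0.0706). The 4 falls became 1 without NM day 28 replicate 0 or 2 or PBS replicate 0 or 1, and 2 without NM day 28 replicate 1 or NM day 1 replicate 2.

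Lysosomal genes showed 3 rises (Ctsk and Ctse among them) and 1 fall (Laptm5) in 47, with a median of -0.01. Laptm5, a lysosomal membrane protein of blood cells, stood at 1606, 1565 and 1132 FPKM in PBS and 763, 514 and 647 at day 28 (-1.16 ± 0.21, adjusted p = 0.00633). Ctse, cathepsin E, rose by 1.26 ± 0.30 (adjusted p = 0.0268). The call of Ctse was lost when any of NM day 28 replicates 0 and 1 and PBS replicates 0 and 2 was left out (adjusted p at most 0.0816). Ctse was not called with a pseudocount of 5 or a fit of the 6 libraries alone (adjusted p up to 0.0654). The 3 rises were 1 without NM day 28 replicate 0 or PBS replicate 2 and 5 under quantile normalisation, and the 1 fall became 4 without PBS replicate 2. The CLEAR core CACGTG, searched in the same windows, was in 6 of 35 members with a promoter (17.1%), against 6.42% of all promoters. It was in 0 of the 2 higher genes and 0 of the 1 lower gene with a promoter. In the iron list 1 of 16 rose, Slc40a1, the iron exporter ferroportin, from 0.686, 0.784 and 0.587 to 5.66, 1.41 and 5.57 FPKM (adjusted p = 0.0339), and 4 rose under quantile normalisation. The call of Slc40a1 was lost when any of NM day 28 replicates 0 and 2 and PBS replicates 0, 1 and 2 was left out (adjusted p at most 0.112). Slc40a1 was not called with no filter on low values, a fit of the 6 libraries alone or transcripts tested singly (adjusted p up to 0.0662). Without NM day 28 replicate 1 the iron list had 2 falls in place of 0.

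Subunits of oxidative phosphorylation gave 6 falls and 1 rise in 72 genes, with a median of -0.27. Ndufv3, Ndufa7 and Ndufb10, all of complex I, fell by 0.95 ± 0.17, 0.93 ± 0.17 and 1.13 ± 0.21 (adjusted p = 0.00543, 0.00633 and 0.00805). Uqcrc2, of complex III, rose by 0.64 ± 0.16 (adjusted p = 0.0343). The count of falls was 3 without PBS replicate 0 or 1 and 12 without PBS replicate 2. Mitochondrial ribosomal proteins gave 3 falls and 1 rise in 65: Mrpl14, Mrpl27 and Mrpl13 fell by 1.11 ± 0.24, 1.14 ± 0.25 and 0.66 ± 0.16 (adjusted p = 0.0154, 0.0175 and 0.0297), and Mrps30 rose by 0.75 ± 0.16 (adjusted p = 0.016). The call of Mrps30 was lost only without NM day 28 replicate 2 (adjusted p = 0.0513) and that of Mrpl14 only without PBS replicate 1 (0.0765). That of Mrpl27 was lost without PBS replicate 0 or 1 (adjusted p at most 0.0842). Uqcrc2 lost its call without NM day 28 replicate 0 or 2 or any PBS replicate (adjusted p at most 0.113). Mrpl13 lost its call without any NM day 28 replicate or PBS replicate 0 or 1 (adjusted p at most 0.156). Uqcrc2 and Mrpl13 were not called with a fit of the 6 libraries alone (adjusted p up to 0.0664). The shares of these lists called lower, 6 of 72 and 3 of 65, stand beside 4.29% of all genes.

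Cytosolic ribosomal proteins gave 2 rises (Rpl22l1 and Rps27l) and 2 falls (Rps4y2 and Rps19) in 80 genes, with a median of -0.22. Rps19, a subunit present at 10009, 10147 and 8169 FPKM in PBS, stood at 4736, 2023 and 4512 at day 28 (adjusted p = 0.0222). Rps27l, which p53 also induces, rose by 0.95 ± 0.26 and Rpl22l1 by 0.76 ± 0.19, whereas Rps4y2 fell by 1.54 ± 0.31 (adjusted p = 0.0412, 0.0339 and 0.0104). Ribosomal genes have near-identical copies in the genome, so their values are uncertain. Under quantile normalisation 9 of the 80 were higher in place of 2, and with a single library left out the count was 0 or 1 in some fits. The call of Rps4y2 was lost only without PBS replicate 1 (adjusted p = 0.05) and that of Rps19 without PBS replicate 0 or 1 (at most 0.0919). Rpl22l1 and Rps27l both lost their calls without NM day 28 replicate 0 or 2 or PBS replicate 1 or 2 (adjusted p at most 0.134). Rps27l also lost its call without any 1 of the NM day 1 libraries. Rps19, Rps27l and Rpl22l1 were not called with 1 or more of no filter on low values, a fit of the 6 libraries alone and transcripts tested singly (adjusted p up to 0.0864). Of 44 proteasome subunits 2 fell, Psmb8 and Psmd3 (-1.01 ± 0.23, adjusted p = 0.0224). Over all genes tested 3.36% were called higher and 4.29% lower. The counts of the ribosomal and proteasome lists were near or below those shares. The call of Psmd3 was lost when any of PBS replicates 0 and 1 was left out (adjusted p at most 0.103). Psmd3 was not called with no filter on low values or a fit of the 6 libraries alone (adjusted p up to 0.0555). No gene of 21 in glycolysis was called by limma, and 1 had an unadjusted p under 0.05.

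**Figure D5:**
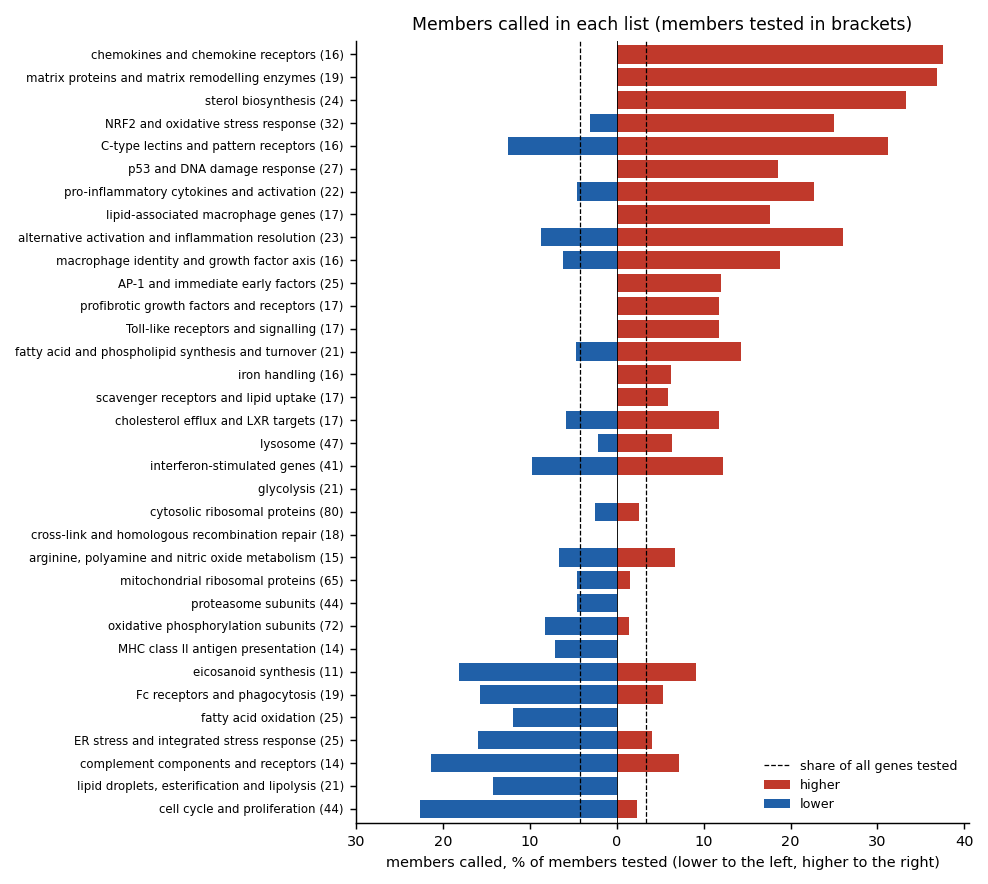
Share of the tested members of each of 34 gene lists that were called higher (right) or lower (left) at day 28, in percent, with the shares over all genes tested, 3.36% and 4.29%, as dashed lines. Chemokines, matrix genes, sterol synthesis and C-type lectins extend furthest to the right, and cell cycle and complement genes furthest to the left.

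Immediate early factors gave 3 rises in 25, with a median of 0.13. Egr1, a growth-factor-induced zinc finger protein, stood at 17.4, 6.66 and 11.7 FPKM in PBS and 31.8, 37.9 and 47.6 at day 28 (1.71 ± 0.29, adjusted p = 0.00449). Ier3, an early response gene that protects against cell death, stood at 5.94, 8.22 and 4.07 in PBS and 30.7, 11.1 and 31.7 FPKM at day 28 (1.76 ± 0.36, adjusted p = 0.0118). The call of Ier3 was lost when NM day 28 replicate 2 was left out (adjusted p = 0.0505). In the arginine and nitric oxide list of 15 genes Nos2 rose and Ddah1, which degrades inhibitors of nitric oxide synthase, fell from 4.49, 8.71 and 7.85 to 2.36, 1.15 and 1.06 FPKM (-1.66 ± 0.32, adjusted p = 0.00841). Ddah1 was lower than PBS in every day 28 library.

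The largest falls included genes of airway secretory cells and epithelial keratins. Itln1, intelectin 1, a secreted lectin of mucosal cells, stood at 67.7, 269 and 60.2 FPKM in PBS and at 6.74, 5.07 and 4.39 at day 28 (-4.04 ± 0.46, adjusted p = 0.000358). Scgb3a1, a secretoglobin of airway secretory cells, stood at 71, 802 and 738 in PBS and 45.3, 13.4 and 30.1 FPKM at day 28 (-3.67 ± 0.77, adjusted p = 0.0137), and Scgb3a2, another secretoglobin, at 8.6, 72.2 and 34.9 in PBS and 6.6, 0 and 3.86 at day 28 (-3.14 ± 0.81, adjusted p = 0.035). The PBS libraries differed widely among themselves, with PBS replicate 1 highest in each of these 3. No day 28 library reached the lowest of them, which the choice of the largest falls required. The calls of Scgb3a1 and Scgb3a2 were each lost without at least 1 of NM day 28 replicates 1 and 2, PBS replicates 1 and 2 and NM day 1 replicate 0 (adjusted p at most 0.147, for Scgb3a2). Scgb3a1 and Scgb3a2 were not called with 1 or more of no filter on low values, a pseudocount of 0.1, robust eBayes, a fit of the 6 libraries alone and transcripts tested singly (adjusted p up to 0.096).

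Other falls of this kind were in Bpifb1, a secreted airway defence protein (11.9, 56 and 25.5 FPKM in PBS and 5.35, 1.99 and 2.65 at day 28; -2.71 ± 0.44, adjusted p = 0.00324), and in Krt18, a keratin of simple epithelia (7.3, 27.8 and 11 in PBS and 1.48, 1.28 and 0.943 FPKM at day 28; -2.68 ± 0.39, adjusted p = 0.00206). Krt15, a basal cell keratin, stood at 60.5, 65.3 and 27.5 in PBS and 9.17, 9.49 and 10.8 FPKM at day 28 (-2.18 ± 0.30, adjusted p = 0.00128). Cyp2f4 and Cyp2a3, cytochrome P450 enzymes of airway cells, fell by 1.80 ± 0.26 and 2.52 ± 0.44 (adjusted p = 0.00206 and 0.00492). In all 5 the groups were separate, and the calls held without any library.

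The airway epithelium list had 6 of 10 tested genes lower and 0 higher, with a median of -1.86. Its sum was 1627 to 8616 FPKM in PBS and 923 to 1473 at day 28, and without PBS replicate 1 the count of falls was 3. The alveolar epithelium list had 3 of 16 lower and 1 higher with a median of 0.18, and sums that overlapped, 269 to 449 in PBS and 311 to 416 at day 28. Aqp5, a water channel of type I cells, fell from 6.02, 10.7 and 6.98 to 1.66, 0.245 and 0.453 FPKM (-2.36 ± 0.31, adjusted p = 0.000963) and Krt19 from 19.6, 31.7 and 11.4 to 5.37, 1.77 and 4.42 (-2.15 ± 0.40, adjusted p = 0.00734), whereas Hopx, a homeodomain cofactor of type I cells, rose from 18.1, 47.7 and 25.3 to 72.9, 52.5 and 72 (1.19 ± 0.30, adjusted p = 0.0311). The call of Hopx was lost when any of NM day 28 replicates 0 and 2 and PBS replicates 0 and 2 was left out (adjusted p at most 0.0959). Hopx was not called with no filter on low values, library weights, a fit of the 6 libraries alone or transcripts tested singly (adjusted p up to 0.0855). With library weights its fold change was 0.60. Epithelial markers were present in every library, PBS included, and the part of epithelial cells in the other falls was not tested.

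The remaining large falls were in genes with no list of their own. Gipc2, a PDZ adaptor protein, stood at 75.9, 44.7 and 42.7 FPKM in PBS and 11.1, 8.36 and 5.91 at day 28 (-2.54 ± 0.29, adjusted p = 0.000355). Klk6, a kallikrein peptidase, stood at 73.7, 37.7 and 17 in PBS and 2.9, 13 and 4.92 FPKM at day 28 (-2.45 ± 0.51, adjusted p = 0.014). Igfbp6, an insulin-like growth factor binding protein, stood at 4.89, 9.42 and 3.16 in PBS and 0, 0 and 0.399 FPKM at day 28 (adjusted p = 0.00637). Tnni1, slow skeletal troponin I, stood at 2.99, 9.29 and 4.39 FPKM in PBS and was listed at 0 in all 3 day 28 libraries (adjusted p = 0.00116), so no fold is given. The call of Klk6 was lost when any of NM day 28 replicate 2 and PBS replicate 1 was left out (adjusted p at most 0.0513). Klk6 was not called with no filter on low values (adjusted p = 0.0506). The groups were separate in all 4, which the choice of the largest falls required.

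Markers of further cell types gave few calls. None of 7 T cell, 4 dendritic cell, 6 erythroid, 3 platelet and 2 fibroblast genes tested was called by limma, and no eosinophil or mast cell marker reached the level for testing. At an unadjusted p under 0.05 there were 1, 2, 1, 2 and 0 of them, in that order. The erythroid list summed to 619 to 2663 FPKM in PBS and 665 to 800 at day 28, with a median log2 fold change of -0.80, and 3 of its 6 genes were called lower without PBS replicate 0 and 1 without NM day 28 replicate 1. Of the platelet genes 1 was called higher without NM day 28 replicate 1 or PBS replicate 0. The T cell list summed to 27.7 to 40.4 FPKM in PBS and 38.4 to 46.4 at day 28, with Cd3e at 0 in all 6 libraries. Of 4 natural killer cell genes Ncr1 rose, from 0.112, 0 and 0 to 1.61, 1.39 and 2.05 FPKM (adjusted p = 0.016). Of 3 B cell genes Fcrla fell, from 643, 466 and 219 to 106, 249 and 96.7 FPKM (adjusted p = 0.0396), although its groups overlapped. Of 4 endothelial genes Tie1, a receptor tyrosine kinase, rose from 3.7, 7.21 and 10.7 to 36.8, 34.1 and 32.2 FPKM (2.20 ± 0.28, adjusted p = 0.000791), with tight day 28 values. The other 3 had lower means at day 28 and were not called, so the list median was -0.73: Pecam1, an adhesion molecule, went from 40.3, 38.7 and 34.8 to 21.7, 30.4 and 19.4 FPKM (-0.67 ± 0.19, adjusted p = 0.051), with no overlap. Without NM day 28 replicate 0 or 1, 1 of them was called lower. The call of Ncr1 was lost without NM day 28 replicate 2 or PBS replicate 1 (adjusted p at most 0.0717). That of Fcrla was lost without NM day 28 replicate 0 or 2 or PBS replicate 0 or 1 (adjusted p at most 0.139). It was also lost without NM day 1 replicate 0 or 2. Fcrla was not called with no filter on low values, quantile normalisation, robust eBayes, a fit of the 6 libraries alone or transcripts tested singly (adjusted p up to 0.0966).

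The day 28 libraries also differed from those taken 1 d after NM in 886 of the 9423 genes, 424 higher (4.5%) and 462 lower (4.9%) at day 28 (9.4% in all, limma). Apoe stood at 72.5, 151 and 47.8 FPKM at day 1, between its PBS and day 28 values, and was 2.78 ± 0.37 higher at day 28 than at day 1 on the log2 scale (adjusted p = 0.001). Trem2, not called against PBS, stood at 17, 136 and 48.1 FPKM at day 1 and was 2.85 ± 0.75 higher at day 28 (adjusted p = 0.0328). S100a9, in contrast, stood at 416, 299 and 161 FPKM at day 1 and Csf1 at 71.4, 68.9 and 25.5, values that overlapped with those of day 28 (differences of -0.40 ± 0.52 and 0.20 ± 0.41, adjusted p = 0.68 and 0.806).

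Ccl2 stood at 181, 146 and 69.7 FPKM at day 1, above its day 28 values in every library, but the difference of -1.66 ± 0.49 was not called (adjusted p = 0.0528). Slpi stood at 81.5, 116 and 107 FPKM at day 1 and was -2.32 ± 0.39 at day 28 relative to it (adjusted p = 0.00357). Itln1 stood at 71.4, 155 and 123 FPKM at day 1, in the range of PBS, and was -4.14 ± 0.46 at day 28 relative to it (adjusted p = 0.000398). Of the 12 largest rises 2, Apoe and Slpi, differed between day 28 and day 1, and of the 10 named largest falls 7 did. Mki67 stood at 19, 23.7 and 22.2 FPKM at day 1 and was lower at day 28 (-1.49 ± 0.18, adjusted p = 0.000627).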

How the data were processed

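Alveolar macrophage RNA of 9 rats' libraries had been prepared with TruSeq and sequenced as paired ends, per the labels' protocols. The authors deposited FPKM per RefSeq transcript, made with TopHat and Cuffdiff on rn4 per the submitters' processing notes, whose versions are not given in the sources used here. Any scaling between libraries is not stated.

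RefSeq accessions were matched to symbols for 17189 of 18197 transcripts (94.5%), and the FPKM of a gene's transcripts were summed, giving 17086 genes. Genes with at least 1 FPKM in at least 3 of the 6 libraries compared were kept (9423, of which 540 have no symbol). A gene under 1 FPKM in every library of a group could pass only if every library of the other group reached 1 FPKM. The separation of its groups was thus fixed by the filter. Such genes include Tlr1, Cxcr2, Folr2, Car4, Slc40a1 and Ncr1 among the rises and Igfbp6 and Tnni1 among the falls. Values were tested as log2(FPKM + 1) in limma (version 3.58.1, R 4.3.3; eBayes with a trend), all 9 libraries sharing 1 estimate of the spread, with Benjamini-Hochberg adjustment over all genes tested and a threshold of 0.05. Fold changes are on that scale and understate the change of low genes. FPKM from Cuffdiff carry no counts, so no count model was run, and an exact 0 can be a failed estimate. The procedure was tested on simulated data of 9423 genes with 200 changed: 2.99%, 43.3% and 86.4% of changes of 0.5, 1 and 2 on the log2 scale were recovered, with 7 false calls. The simulated noise was independent between libraries and equal in size for all of them. NM day 28 replicate 1 stands apart in the real data, so these shares are not error rates of the reported calls. Genes with near-identical copies, and 718 genes summed from several transcripts, are less certain. Strand is not stated.

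The genes named are the 12 largest rises and falls (called, groups not overlapping, mean of at least 5 FPKM in the higher group; 2 of the falls have no symbol), up to 3 called genes per list and direction by smallest p, and 19 genes named whatever their values, of which Marco was not tested. Some genes counted in the lists are not reported here. List members named besides these were picked once their values were known. The comparison, its 48 gene lists and these genes were chosen with earlier results of these data known. Other settings tried were a smaller and a larger pseudocount (0.1, 5), dropping the filter or raising it to 5 FPKM, quantile or median-of-ratios scaling, a replicate block, robust eBayes, library weights, the 6 libraries alone, transcripts tested singly, and each library left out. Promoters came from RefSeq (GRCr8).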

Additional observations from a re-analysis of the deposited data

Results flagged for a closer look

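The NM day 28 libraries were also set against the NM day 1 libraries, and 47 of the named genes differed between the 2 times at an adjusted p under 0.05 (limma, all 9423 genes). No PBS library is matched to each day, so time and age cannot be told apart from the NM effect in these values. The differences are given as day 28 minus day 1 on the log2(FPKM + 1) scale.

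Several lipid and lipid-associated macrophage genes were higher at day 28 than at day 1: Trem2 by 2.85, Apoe by 2.78, Pltp by 1.44, Scarb1 by 0.96, Cstb by 0.86, Elovl5 by 0.69, Hmgcs1 by 0.68, Pparg by 0.61 and Insig1 by 0.57. Pparg stood at 115, 105 and 140.5 FPKM at day 1, below every PBS and day 28 library. Cidea (-0.90) and Alox15 (-1.74) were lower at day 28 than at day 1. Scarb1 stood at 16.2, 14.9 and 15.4 FPKM at day 1, in the range of its PBS values.

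Epithelial genes were among those with large differences. Aqp5 differed by -3.53, Itln1 by -4.14, Krt18 by -2.98, Bpifb1 by -2.95, Cyp2a3 by -2.85, Krt15 by -2.44, Krt19 by -2.35 and Cyp2f4 by -1.75, and Gipc2, Tnni1 and Igfbp6 by -2.07, -1.82 and -1.79. The value of Tnni1, listed at 0 in every day 28 library, depends on the pseudocount. The summed alveolar epithelium list was 1076 to 3153 FPKM at day 1 and 311 to 416 at day 28, and the airway list 1611 to 3760 and 923 to 1473, and their part in these differences was not tested.

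Of the inflammatory and immune genes, Slpi differed by -2.32, Cxcr2 by -1.70, Bst2 by -1.70, Tap2 by -1.16, Psmb8 by -0.92, RT1-DMa by -0.88 and Cd300lf by -0.73. Of the cell cycle genes, Cenpf differed by -1.58, Cdca8 by -1.52 and Mki67 by -1.49, and Ccne2 by 0.95 in the other direction. Chaperones and other protein-handling genes were lower at day 28 than at day 1, Pdia3 by -1.03, Hsp90b1 by -0.97, Hspa5 by -0.83 and Psmd3 by -0.82.

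Higher values at day 28 than at day 1 were also found for Tie1 (1.75), Ctsk (1.53), Rnase3 (1.53), Egr1 (1.23), Asns (0.93) and Mrps30 (0.72). Tie1 stood at 7.71, 10.7 and 10.4 FPKM at day 1, beside 3.7, 7.21 and 10.7 in PBS. Lower ones were found for Rps4y2 (-1.36), Ddah1 (-1.28), Ctse (-1.24) and Mrpl14 (-1.003).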

How the results depend on the processing

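Across 20 other settings no called gene among those named changed direction. Of the 116 called genes named, 70 kept their call in all 20, 84 in the 11 that did not leave out a library, and 45 lost it with at least 1 library left out. With 1 library left out the number of genes higher ranged from 164 to 354 and the number lower from 124 to 431: it was 182 and 286 without NM day 28 replicate 0, 354 and 431 without NM day 28 replicate 1, 173 and 226 without NM day 28 replicate 2, 234 and 225 without PBS replicate 0, and 164 and 124 without PBS replicate 1. Fitting the 6 libraries alone called 229 higher and 230 lower, with 450 calls shared with the 721 reported. Library weights called 1347 higher and 1942 lower, but their estimation did not converge and gave PBS replicate 1 a weight of 20.1 against 0.249 to 1.40 for the others. They also called Msr1, Cpt1a, Tgfb1, Trem2 and Gpnmb. Quantile normalisation called 377 higher and 329 lower, and median-of-ratios scaling 328 and 365. With the replicate number as a block 286 were higher and 365 lower, and 600 of the calls were shared. Among the genes named, the block ended the calls of Pltp, Elovl5, Pla2g15, Pdia3 and Uqcrc2 (limma adjusted p from 0.051 to 0.0746). Same-numbered NM day 28 and PBS libraries had correlations of their deviations of 0.200, -0.142 and -0.121, so the samples share a number and not a known pairing. Of the 96 counts per list and direction, leaving out PBS replicate 1 moved 32 and leaving out NM day 1 replicate 0 moved 3 by more than 1.5 times. Absolute depth is unknown, and the day 28 libraries, the shallower ones, limit genes of low level most.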

Other observations

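Outside the gene lists, several genes with large differences were chosen after their values were seen, and all kept their calls under every other setting in which they were tested, transcripts tested singly not among them. Lilrb4, an inhibitory leukocyte receptor, stood at 235, 41.7 and 61.1 FPKM in PBS and 665, 882 and 678 at day 28 (3.11 ± 0.48, limma adjusted p = 0.00275). Fcar, the IgA receptor, stood at 1.57, 0.543 and 0.711 in PBS and 12.5, 8.01 and 12.1 FPKM at day 28 (2.62 ± 0.31, adjusted p = 0.000466). Both were separate from PBS in every library. Akr1b8, an aldo-keto reductase, stood at 1.93, 1.23 and 2.96 in PBS and 55.1, 6.98 and 50.3 FPKM at day 28 (adjusted p = 0.0066), with replicate 1 far below the other day 28 libraries. Fam20c, a secretory pathway kinase that phosphorylates osteopontin among other proteins, stood at 1.02, 0.308 and 1.21 in PBS and 10.1, 8.53 and 8.87 FPKM at day 28 (adjusted p = 0.000278), Htr2b, a serotonin receptor, at 2.56, 2.8 and 2.08 in PBS and 12.3, 13.3 and 12.8 at day 28 (adjusted p = 0.00543), and Ndrg2 at 2.54, 4.28 and 4.24 in PBS and 28.6, 13.5 and 24.1 at day 28 (adjusted p = 0.00275). At day 1 Ndrg2 stood at 4.61, 1.95 and 6.41 FPKM, values that overlapped with PBS. Slc28a2, a nucleoside transporter, and Xdh, xanthine dehydrogenase, which act on purines, rose by 2.45 ± 0.27 and 2.02 ± 0.22 (adjusted p = 0.000321 and 0.000321), and Clec2d2 by 3.10 ± 0.31 (adjusted p = 0.000278).

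Falls outside the lists included a pair of receptor partners. Ramp1, which forms the receptor for calcitonin gene-related peptide, stood at 252, 333 and 269 FPKM in PBS and 91.4, 91.7 and 79.3 at day 28 (-1.69 ± 0.16, adjusted p = 0.000278). Ramp3, its relative in adrenomedullin receptors, stood at 127, 155 and 108 in PBS and 41.6, 43.9 and 35.2 FPKM at day 28 (-1.66 ± 0.21, adjusted p = 0.000678). The day 28 values of both were tight and clear of PBS. Col23a1, a transmembrane collagen, fell by 2.39 ± 0.28, Fam3d by 2.34 ± 0.27, Alpk3 by 2.17 ± 0.28, Fam89a by 2.09 ± 0.23, Myh14, a non-muscle myosin heavy chain, by 1.78 ± 0.19 and Tgm1, a transglutaminase, by 1.75 ± 0.17 (adjusted p between 0.000278 and 0.000805). At day 28 Col23a1 stood at 5.01, 10.5 and 5.88 FPKM, Fam3d at 9.51, 19.4 and 8.58 and Alpk3 at 15.2, 32.5 and 16.4. Each was highest in replicate 1.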
